A study of Mus musculus with 6 samples.

Results

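The Hox genes were read in the deep cerebellar nuclei of trained mice by 54 probe sets for 33 genes, out of 36701 probe sets in all. They were taken from 3 array designs, labelled A, B and C, as every probe set whose platform annotation holds a single gene symbol made of Hoxa, Hoxb, Hoxc or Hoxd and a number, whatever its signal. Design A held 38 of them and designs B and C 8 each. Hoxd3 and Hoxd4 were read only by probe sets that hold several symbols and are not among the 33.

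The tissue, aimed at the anterior interpositus, a cerebellar nucleus on which eyeblink conditioning depends, was punched with syringe needles from male C57BL/6 mice aged 11 to 18 weeks. In the paired group a shock of 100 ms beside the eye began 252 ms into a tone of 352 ms and ended with it, on each of 7 training days. In the unpaired group the same tone and shock were kept apart in pseudorandom order over 7 days. All mice had 4 wires implanted in the left eyelid and 3 days of recovery. Each pool combined 10 to 15 nuclei from the side of the implanted eye, collected 10 to 30 min from sacrifice. One array per training group and design gave 6 arrays, with no replicate on any design, so no difference between the pools has a test or a p-value. On design A the median log2 signal was 4.83 in the paired pool and 4.79 in the unpaired pool. Both pools had 4.32 on design B, and design C had 3.02 for the paired and 3.03 for the unpaired pool.

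Hox genes encode homeodomain transcription factors that give cells their position along the body axis. They lie in 4 clusters, on mouse chromosomes 6 (Hoxa), 11 (Hoxb), 15 (Hoxc) and 2 (Hoxd), and the paralogue number follows the place in the cluster: low numbers are expressed up to anterior limits in the hindbrain, high numbers only in caudal spinal cord and other posterior tissue. The cerebellum and its nuclei arise from the first rhombomere, which is free of Hox expression, whereas medulla and much of the pons derive from Hox-expressing rhombomeres and keep part of that expression in the adult. The question put to the Hox values was therefore whether the dissection held tissue from behind the cerebellar territory.

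The upstream sequences of 3 Hox genes are given as background, and their link to the values below was not tested. Hoxb1 is the most anterior gene of its cluster and has a known autoregulatory element. Hoxb4 and Hoxa7 had probe sets without a letter suffix above the median signal. The other genes with such a probe set, Hoxb2, Hoxb5, Hoxb6, Hoxc5 and Hoxc10, had no sequence in the promoter set used. Each line gives the 250 bases before the annotated start, 5′ to 3′ on the strand of the gene, from RefSeq (GRCm38.p6). Capitals mark matches, on either strand, to TGATNNAT, the composite motif of a HOX and a PBX protein, to the CCAAT box (CCAAT) and to the TATA box (TATAAA). These motifs do not overlap in the sequences shown.
Hoxb1: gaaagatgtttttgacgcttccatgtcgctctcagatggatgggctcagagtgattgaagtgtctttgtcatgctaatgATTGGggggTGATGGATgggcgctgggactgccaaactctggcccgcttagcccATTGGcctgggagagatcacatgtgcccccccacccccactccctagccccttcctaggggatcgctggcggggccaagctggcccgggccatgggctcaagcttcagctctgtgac
Hoxb4: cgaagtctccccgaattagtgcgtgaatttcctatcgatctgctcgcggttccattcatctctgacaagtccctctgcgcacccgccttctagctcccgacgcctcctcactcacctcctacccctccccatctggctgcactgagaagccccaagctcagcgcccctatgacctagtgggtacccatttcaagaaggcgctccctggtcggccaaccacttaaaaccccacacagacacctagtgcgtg
Hoxa7: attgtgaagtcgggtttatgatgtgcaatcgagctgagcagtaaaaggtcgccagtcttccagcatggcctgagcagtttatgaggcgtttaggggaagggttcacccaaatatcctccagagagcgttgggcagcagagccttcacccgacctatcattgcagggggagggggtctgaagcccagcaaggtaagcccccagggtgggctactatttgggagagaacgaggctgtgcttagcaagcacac
The Hoxb1 window lies at chr11:96365508-96365757 on the plus strand and its last bases fall inside the annotated Hoxb1 gene. The Hoxb4 window lies at chr11:96318017-96318266 on the plus strand, inside the annotated span of Hoxb3. The Hoxa7 window lies at chr6:52218574-52218823 on the minus strand and overlaps no annotated gene. Hoxb1 held 1 match to TGATNNAT and 2 to CCAAT, and the other windows held none of the 3 motifs. RefSeq promoters of 20 of the measured Hox genes, 22 windows in all, held TGATNNAT in 18.2%, CCAAT in 54.5% and TATAAA in 13.6%, against 7.68%, 33.8% and 12.4% of 32851 promoters of the same length. The Hox windows had a median of 13 CpG sites, against 6 over all promoters.

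Most Hox probe sets were dim in both pools. The signal rank of a probe set is its percentile among all probe sets of the same array without controls, so 100 is the brightest and 50 the median. The 54 Hox probe sets had a median rank of 30.6 in the paired pool and 30.1 in the unpaired pool, with a range of 2.34 to 93.6 in the paired and 1.72 to 91.8 in the unpaired pool. The median was reached in both pools by 12 of them (22.2%), for 11 genes, against 48.4% of all probe sets. By design the counts were 6 of 38 on A, 3 of 8 on B and 3 of 8 on C, against 48.6, 48.1 and 48.3% of all probe sets there. At the 75th percentile, which 25% of all probe sets pass on an array by definition, 3 of 54 remained, for Hoxa4, Hoxc9 and Hoxc10. Under the 25th percentile in both pools lay 21 of 54 Hox probe sets, and no order is read among those. By definition 25% of all probe sets lie under it on a single array. The arrays hold no detection call that was used here, so a rank places a probe set among the others and does not show that its gene is expressed or silent. In a pool of tissue, fewer cells that express a gene and less of its RNA per cell cannot be told apart.

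**Figure D1:**
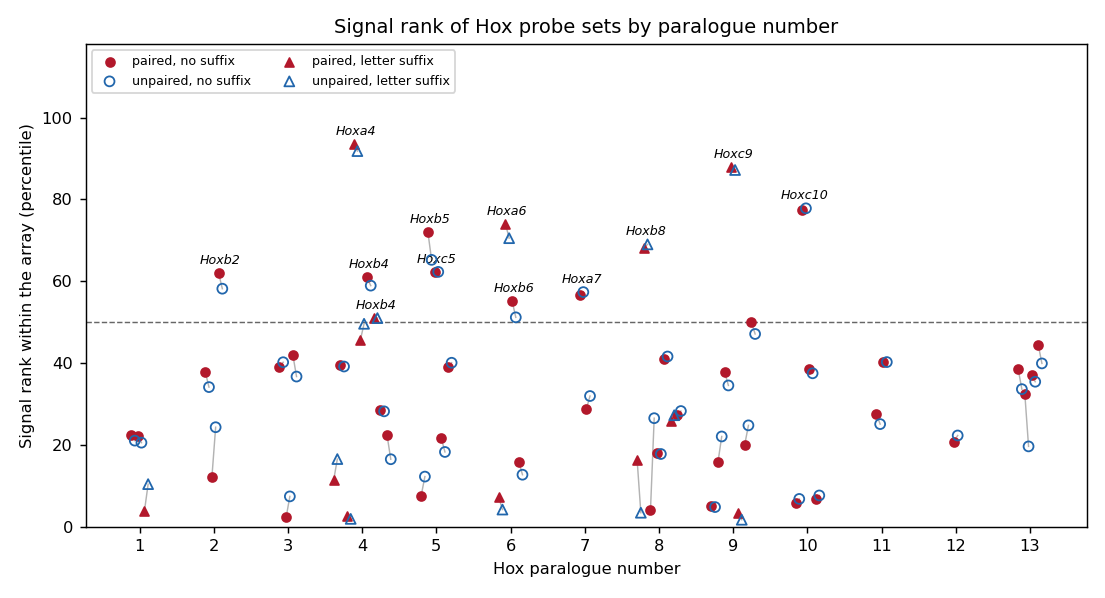
Signal rank within the array (percentile, 100 = brightest) of the 54 Hox probe sets against paralogue number. Filled red symbols are the paired pool and open blue symbols the unpaired pool, joined by a grey line, with triangles for probe sets with a letter suffix, small sideways shifts to separate probe sets, and the dashed line at the median of the array. The 12 probe sets at or above the median in both pools are named, and they do not follow the paralogue number.

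Signal did not follow paralogue number. Spearman's rho between paralogue number and mean rank was 0.01 over the 54 probe sets and -0.01 over the 41 without a letter suffix, as a description of probe sets that share arrays. Median ranks in the paired and unpaired pools were 33.3 and 31.2 for paralogues 1 to 4, 28.0 and 30.1 for paralogues 5 to 8, and 34.7 and 29.4 for paralogues 9 to 13. The median was reached in both pools by 4 of 18 probe sets of paralogues 1 to 4, 6 of 18 of paralogues 5 to 8 and 2 of 18 of paralogues 9 to 13. Genes of the last class are known from caudal spinal cord, limbs and genital tissue and not from the hindbrain, and their median rank was the highest of the 3 classes in the paired pool and the lowest in the unpaired pool.

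Among the anterior paralogues, which mark the rhombomeres, Hoxb2 and Hoxb4 reached the median without a suffix. Hoxb2, a factor of the rhombomeres that give rise to the trigeminal and facial motor nuclei, had a log2 signal of 4.92 in the paired and 4.74 in the unpaired pool, at ranks 62.0 and 58.2. Hoxb4, which is also a factor of blood stem cells, had a probe set at 3.61 and 3.50 (ranks 60.9 and 58.9) in the paired and unpaired arrays of design C. Another Hoxb4 probe set on that design, with the suffix r, stood at the median, at ranks of 51.0 in both pools. One with the suffix f lay just under it at 45.6 in the paired and 49.6 in the unpaired pool. The Hoxb4 probe set on design A was at 28.6 and 28.2. The paired pool was thus slightly above the unpaired pool for Hoxb2 and for the brightest Hoxb4 probe set, and not for the others of Hoxb4 on design C.

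The most anterior genes were dim. Hoxb1, which specifies facial motor neurons, had a log2 signal of 3.16 in the paired and 3.05 in the unpaired pool, at ranks 22.4 and 21.1, and Hoxd1 was no brighter on its 2 probe sets. Hoxa2, which patterns the hindbrain and the pontine neurons that project to the cerebellum, had ranks of 37.9 in the paired and 34.1 in the unpaired pool on design A, and 12.2 and 24.3 on design C. The group of paralogue 3 lay under the median throughout. Hoxa3, needed for thymus and parathyroid, had its higher probe set at ranks 39.1 in the paired and 40.2 in the unpaired pool, and Hoxb3 stood at 42.1 and 36.7, with log2 signals of 4.33 and 3.95. The single Hoxc4 probe set was at 22.4 in the paired and 16.5 in the unpaired pool.

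The central paralogues held the most probe sets above the median. Hoxb5, which is active in caudal hindbrain, spinal cord and the crest cells of the gut, had a log2 signal of 6.20 in the paired and 5.77 in the unpaired pool, at ranks 72.1 and 65.2. Its paralogue Hoxa5, a factor of the caudal medulla and of lung development, was dim at ranks of 7.64 in the paired and 12.3 in the unpaired pool. Hoxc5, expressed in cervical spinal cord, gave a log2 signal of 4.93 in both pools on one probe set of design B (ranks 62.2 in the paired and 62.3 in the unpaired pool) but ranks of 21.7 and 18.3 on the other, and 39.1 and 40.1 on design A. The paralogue 5 genes thus ranged from dim to well above the median.

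Hoxb6 had a log2 signal of 5.15 in the paired and 4.87 in the unpaired pool, at ranks 55.2 and 51.2, just inside the median. Hoxa7 was level between the pools, at 5.24 in the paired and 5.26 in the unpaired pool (ranks 56.7 and 57.4). Hoxc6, a factor of limb-level motor neurons, was dim at ranks 15.9 and 12.7 in the paired and unpaired pools. Hoxb7 stood at 28.7 and 32.0, and the probe sets of Hoxc8 and Hoxd8 ranged from 4.10 to 41.0 in the paired and from 17.8 to 41.6 in the unpaired pool. None of these reached the median except Hoxb6 and Hoxa7.

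Of the posterior paralogues, Hoxc10 ranked highest without a suffix among all Hox probe sets. Hoxc10, a factor of lumbar motor neurons, had a log2 signal of 5.79 in the paired and 5.82 in the unpaired pool, at ranks 77.4 and 77.8, on its only probe set. Its paralogues Hoxd10, also lumbar, and Hoxa10, known for its part in the uterus, had ranks of 38.5 and 5.79 in the paired and 37.5 and 6.81 in the unpaired pool on design A. A Hoxd9 probe set fell just outside the bar, at 50.1 in the paired and 47.1 in the unpaired pool, and was the only Hox probe set at or above the median in a single pool. This Hoxd9 probe set is annotated to the same sequence record as the Hoxd10 probe set of design A. The remaining posterior probe sets without a suffix, those of Hoxa9, Hoxb9, Hoxa11, Hoxd11, Hoxd12, Hoxa13, Hoxb13, Hoxd13 and the second ones of Hoxd9 and Hoxd10, lay between 5.06 and 44.5 in the paired and between 4.82 and 40.3 in the unpaired pool. Hoxd13, a digit and genital factor, had a log2 signal of 4.49 in the paired and 4.15 in the unpaired pool, at ranks 44.5 and 39.9. Hoxd11, a forelimb factor, was level with 4.22 in the paired and 4.17 in the unpaired pool, and Hoxd12 was dim with 3.08 and 3.12.

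By cluster, the Hoxb genes on chromosome 11 ranked highest and the Hoxd genes on chromosome 2 had no probe set that reached the median in both pools. Of the Hoxb probe sets 6 of 15 reached the median in both pools, against 3 of 17 for Hoxa, 3 of 10 for Hoxc and 0 of 12 for Hoxd. Without suffixed probe sets the counts were 4 of 11, 1 of 12, 2 of 8 and 0 of 10, in the same order. Hoxb2, Hoxb4, Hoxb5 and Hoxb6, which make up the Hoxb count without suffixes, follow each other along the chromosome with Hoxb3 among them. Median ranks in the paired and unpaired pools were 42.1 and 36.7 for Hoxb, 15.9 and 24.3 for Hoxa, 22.1 and 22.4 for Hoxc and 26.6 and 27.8 for Hoxd.

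Different probe sets of the same Hox gene often gave very different ranks. Of 15 genes with several probe sets, 8 spanned more than 30 percentile points of mean rank over both pools, and in 4 of these the brightest probe set carried a letter suffix, which in this naming scheme marks probes chosen under relaxed rules (r), or shared within a gene family (f) or between similar transcripts (s). The brightest Hox probe set of all was a Hoxa4 one with the suffix r, at a log2 signal of 8.21 in the paired and 7.94 in the unpaired pool (ranks 93.6 and 91.8). A Hoxa4 probe set with the suffix f, drawn from the same sequence record, ranked at 2.55 and 1.93, the unsuffixed one at 39.6 and 39.2, and a second one with the suffix r at 11.4 and 16.6. The Hoxa4 ranks thus ran from the bottom to the top of the same arrays.

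Hoxa6 and Hoxb8 showed the same split between probe sets of a shared sequence record. For Hoxa6 the probe set with the suffix r had a log2 signal of 6.32 in the paired and 6.10 in the unpaired pool (ranks 74.1 and 70.5). The one with the suffix f had ranks of 7.17 in the paired and 4.21 in the unpaired pool. Hoxb8, a gene of spinal cord and of a microglial lineage, had a log2 signal of 5.95 in the paired and 6.01 in the unpaired pool with the suffix r (ranks 68.2 and 69.0), and ranks of 16.3 and 3.44 with the suffix s. Hoxc9, which sets thoracic motor neuron identity, had a log2 signal of 5.90 in the paired and 5.83 in the unpaired pool with the suffix r on design C (ranks 88.0 and 87.2), and ranks of 3.28 and 1.72 with the suffix f on design A. Of the 6 Hox probe sets with the suffix r, 5 reached the median in both pools, against 39.6% of the 3236 such probe sets on all designs. None of the 4 with the suffix f did, against 53.0% of 2769. Without any suffix, 7 of 41 Hox probe sets reached it (17.1%), against 49.3% of all unsuffixed ones, and they read Hoxb2, Hoxb4, Hoxb5, Hoxb6, Hoxa7, Hoxc5 and Hoxc10.

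**Figure D2:**
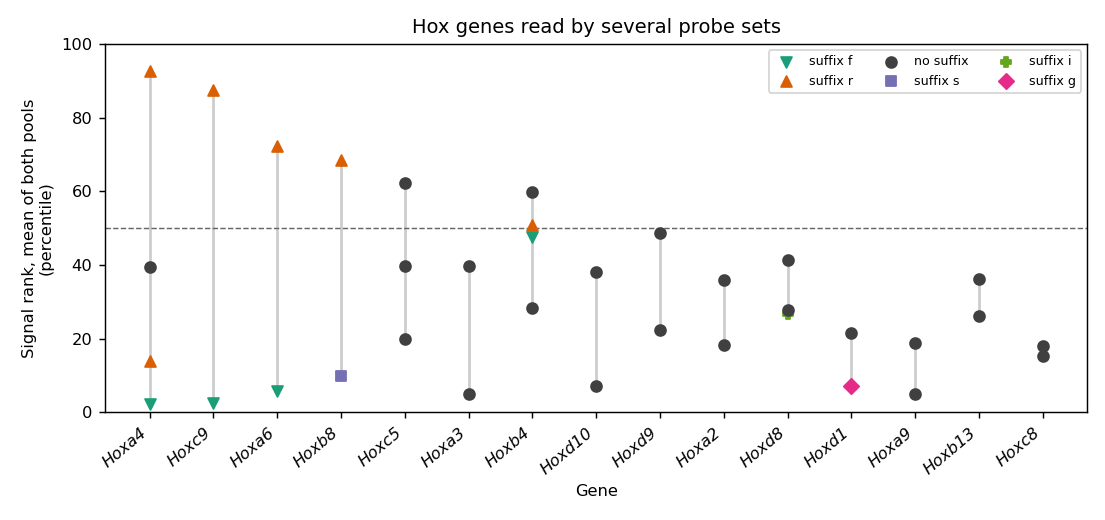
Mean signal rank over the paired and unpaired pools (percentile) of each probe set of the 15 Hox genes read by several, ordered by their span. Marker and colour show the letter suffix, the grey line joins the probe sets of a gene and the dashed line is the median. Hoxa4 spans 2.24 to 92.7, and the top probe set of the 4 genes with the widest span carries the suffix r.

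Other gene lists on the same arrays place these ranks. Among 48 probe sets of genes typical of other organs, such as insulin, albumin, protamine and keratin genes, 11 reached the median in both pools (22.9%, and 16.2% without suffixed ones), with median ranks of 26.3 in the paired and 26.7 in the unpaired pool. Transcription factors of forebrain position reached it in 3 of 21, Emx1, Rax and Nkx2-1, with median ranks of 25.3 and 21.6. The Hox share, 22.2%, or 17.1% without suffixed probe sets, was thus close to that of the genes of other organs. It was above that of the forebrain factors, which was 14.3%, or 11.1% without suffixed probe sets. Where 5 of 6 Hox probe sets with the suffix r reached the median, all 5 probe sets with the suffix r in the list of other organs did, among them Tnp1, Prm1, Acr and Lor, while Cela1 was the brightest without a suffix.

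Markers of neurons of the brainstem lay between the Hox genes and all probe sets. Of 28 probe sets for 17 of 27 listed genes, 11 reached the median in both pools, with median ranks of 45.0 in the paired and 44.8 in the unpaired pool. That share, 39.3%, was above the 22.2% of the Hox genes and below the 48.4% of all probe sets. By the brightest probe set of each gene, Lmx1b, a factor of serotonergic neurons, had ranks of 93.6 in the paired and 92.4 in the unpaired pool, the noradrenaline transporter gene Slc6a2 73.8 and 67.9, and Tph2, the serotonin-synthesising enzyme, 66.3 and 71.7. Other probe sets were lower, with Lmx1b at 57.2 in the paired and 53.3 in the unpaired pool and Slc6a2 down to 11.2 and 12.8. The brighter probe set of Slc6a4, the serotonin transporter, stood at 36.8 in the paired and 41.5 in the unpaired pool, and Phox2a, a factor of visceral motor and noradrenergic neurons, at 46.2 and 42.5. Of the 28, 8 lay under the 25th percentile in both pools. The part of these neurons in the Hox ranks was not tested.

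Markers of the labelled tissue were bright in part. Markers of deep nuclear projection neurons reached the median in 13 of 19 probe sets, with median ranks of 90.3 in the paired and 85.1 in the unpaired pool, among them Vamp1, Slc17a6, Nefm and Scn4b, whose brightest probe sets ranked from 99.4 upward in both pools. Of the transcription factors of the same list, Irx3 was bright, at ranks 81.7 in the paired and 85.1 in the unpaired pool. Lhx9, Tbr1 and Meis2 were dim, with ranks between 10.7 and 29.0 in the paired and between 8.37 and 30.4 in the unpaired pool. Granule cell markers reached the median in 13 of 20 and Purkinje cell markers in 10 of 20. Among factors of the rostral hindbrain and cerebellum, Zic1, En2 and, on suffixed probe sets, Irx1 and Fgf8 reached the median. Of that list 16 of 42 probe sets (38.1%) reached it, under the share of all probe sets. Markers of other cell types that a punch could hold reached it as well: 8 of 22 probe sets of meninges and fibroblasts, 10 of 22 of endothelial and mural cells, 7 of 15 of choroid plexus and ependyma and 5 of 14 of blood cells, where Hba-a1 had ranks of 99.6 in both pools. Their part in the Hox signal was not tested.

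**Figure D3:**
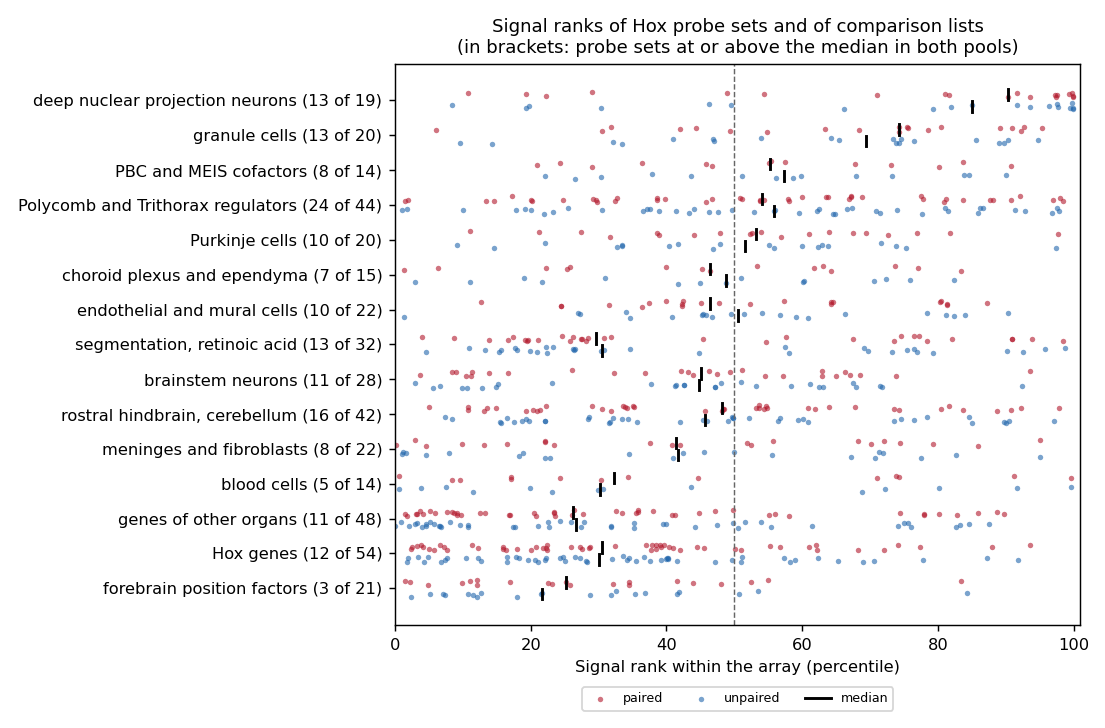
Signal ranks within the array (percentile) of the Hox probe sets and of 14 comparison lists, ordered by the share that reached the median in both pools, which stands in brackets as a count. Red points are the paired pool and blue points, drawn below them, the unpaired pool, black bars are medians and vertical scatter has no meaning. The Hox genes, with 12 of 54, lie beside the genes of other organs, with 11 of 48.

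The lists of partners and regulators of Hox genes reached the median in 40.6 to 57.1% of their probe sets, on either side of the 48.4% of all probe sets. The PBC and MEIS classes, homeodomain cofactors that bind DNA together with Hox proteins, reached it in 8 of 14 (57.1%). By the brightest probe set of each gene, Meis1 led with ranks of 90.8 in the paired and 90.1 in the unpaired pool, on one with a suffix, ahead of Pbx3 at 80.2 and 83.9, Pknox1 at 67.7 and 68.0, and Pknox2. The lowest probe sets of the same genes stood at 21.0 in the paired and 22.2 in the unpaired pool for Meis1 and at 24.3 and 26.5 for Pknox1. Regulators of the Polycomb and Trithorax groups, which keep Hox clusters silent or active, reached it in 24 of 44 (54.5%). By the brightest probe set of each gene, Rnf2, Jarid2, Cbx6 and Rbbp5 led, those of Rnf2 and Jarid2 with a suffix. The lowest probe sets stood at 20.1 in the paired and 10.0 in the unpaired pool for Rnf2 and at 32.4 and 39.0 for Jarid2. Of the segmentation factors and retinoic acid genes that act upstream of the clusters, 13 of 32 reached the median (40.6%). The brighter of 2 probe sets of Aldh1a1, a retinaldehyde dehydrogenase, stood at 98.4 in the paired and 98.7 in the unpaired pool. Rxrb, Rarb and Aldh1a3 followed. Egr2 and the Cdx genes, which switch on Hox genes in the embryo, were at most at rank 19.6 in the paired and 26.4 in the unpaired pool.

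The difference between the training groups was then taken as the log2 ratio, paired over unpaired, after the ratios of each design were centred and signals under the 25th percentile were set to it. No Hox probe set with a ratio was 1.5-fold or more apart, against 0.744% of all probe sets with one. Both pools were at that floor for 21 of the 54 Hox probe sets, which have no ratio, against 8344 of all 36701. The other 33 had a ratio, with 12 at or above the median of mean signal. Of those 12, 8 were higher in the paired pool and 4 lower, or 7 and 5 with no, quantile or loess scaling, with a median log2 ratio of 0.09 and a range of -0.04 to 0.44. Centring puts the median of all 18351 probe sets above the same bar at 0; 0.681% of them were at least 1.5-fold apart in either direction, and their log2 ratios had an SD of 0.19.

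**Figure D4:**
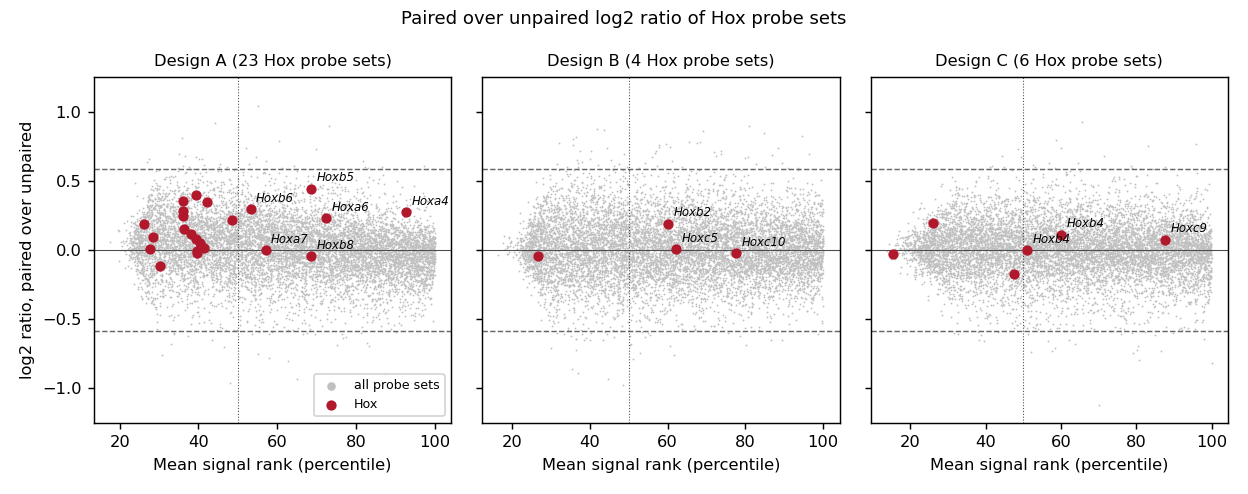
The log2 ratio, paired over unpaired, against mean signal rank (percentile) on designs A, B and C, for all probe sets above the floor in a pool or both (grey) and for the Hox probe sets (red, 23, 4 and 6 of them). Dashed lines mark 1.5-fold, the dotted line the median rank, and names are given to the 12 Hox probe sets above it. All Hox points lie within 1.5-fold, and Hoxb5 has the highest ratio at 0.44.

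Hoxb5 had the largest difference among the Hox genes. Its log2 ratio of 0.44, or 1.36-fold, was exceeded or matched in size by 3.06% of the 6211 probe sets above the bar on design A. Among the unsuffixed probe sets above the bar, Hoxb6 followed with 0.30 and Hoxb2 on design B with 0.19, sizes reached by 11.4% and 31.3% of the probe sets on their designs, and the brighter Hoxb4 probe set had 0.11, reached by 49.3% on design C. All 4 of these unsuffixed Hoxb probe sets were higher in the paired pool, a set put together after the values were seen. Of the suffixed ones, Hoxa4 had 0.28, Hoxa6 0.23 and Hoxc9 0.07. The other 5 probe sets, of Hoxc5, Hoxb4, Hoxa7, Hoxc10 and Hoxb8, lay between -0.04 and 0.01.

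Under the median, more Hox probe sets were higher than lower in the paired pool, as was the case for all dim probe sets. Of the 21 dim Hox probe sets with a ratio, 15 were higher in the paired pool, against 56.0% of all such probe sets, among them 14 of 17 on design A, where 62.4% of all dim probe sets with a ratio were higher and their median was 0.06. The median of the Hox ones on design A was 0.11. The largest were Hoxb3 with 0.40, Hoxa13 with 0.36 and Hoxd13 with 0.35, and the lowest on any design was a Hoxb4 probe set on design C with -0.17. In 3 of the 21, of Hoxc8, Hoxa11 and Hoxb13, a pool was at the floor, so the size of the ratio is set by it. Hoxb9, Hoxd9, Hoxa2 and Hoxb13 were among the others higher in the paired pool, with 0.25, 0.21, 0.28 and 0.15 on design A.

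Markers of cerebellar cortex had larger median ratios than the Hox genes, whose median was 0.09. Genes of other organs and markers of choroid plexus and ependyma did as well, by less. In the paired pool 13 of 14 granule cell probe sets above the bar were higher, with a median log2 ratio of 0.26. Gabra6 was at 1.04 on a probe set with the suffix s and at 0.73 on one without a suffix. Likewise 8 of 11 of Purkinje cells were higher, with a median of 0.24. Car8 was at 0.61 on design C and at 0.24 on design A. Genes of other organs were higher in the paired pool for 9 of 12, with a median of 0.11. Markers of choroid plexus and ependyma were so for 6 of 7, with a median of 0.10. Markers of deep nuclear projection neurons were higher for 5 of 14, with a median of -0.02. Slc17a6 was at 0.85 on design B and at -0.003 and -0.08 on design C. Vamp1 ran from -0.02 on design B to 0.41 on a probe set with the suffix i. Brainstem neuron markers were higher for 6 of 11 with a median of 0.06, Slc6a2 at 0.38 and Tph2 at -0.39. Cofactors of the PBC and MEIS classes were higher for 2 of 8, with a median of -0.05 and Pbx3 at -0.31. Upstream genes were higher for 8 of 13, with a median of 0.03 and Rxrb at -0.46, and the Polycomb and Trithorax group for 11 of 25, with a median of -0.03. The part of the cortical markers in the Hox ratios was not tested.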

How the data were processed

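Per the labels' protocols, 15 ug of biotinylated cRNA of each pool went onto an array of 1 colour. The deposited signals, 1 value for a probe set on an array, are taken to be log2, since without controls they ran from 1.40 to 12.53. How they were summarized or normalized is not given in the sources. The letters in the labels are read as array designs. Whether a group's 3 arrays shared their RNA is not stated in the labels.

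The 198 control probe sets were set aside. Genes come from the platform annotation, with symbols updated through RefSeq (GRCm38.p6), which matched all 33 Hox genes; probe sequences were not checked. Ranks are percentiles within an array. For ratios, each design's paired signals were moved by a constant that brought the median ratio of the brighter probe sets to 0, signals below the 25th percentile were raised to that floor, and probe sets with mean signal at or above the median were kept. Designs were never normalized together. With 1 array per group and design nothing was tested, and the number of arrays limits the precision.

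The Hox genes, the 14 comparison lists, the bars and the alternatives were chosen with earlier results of these data known. Named are all Hox genes and, per list, some of the 4 of the highest rank and the 2 of the largest log2 ratio. En2, Slc6a4, Phox2a, Irx3, Lhx9, Tbr1, Meis2, Egr2 and the Cdx genes were named after their values were seen. Alternatives changed the scaling, floor, signal bar, ranking background and choice of probe sets. The steps were tested on simulated data. Python 3.11.15, numpy 2.4.6, pandas 2.3.3 and statsmodels 0.14.6 were used.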

Additional observations from a re-analysis of the deposited data

How the results depend on the processing

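The count of 12 Hox probe sets at or above the median in both pools was 7 of 41 without suffixed probe sets, and 7 of 48 without those of suffix r alone, an alternative chosen after seeing the data. It was 31 with the bar at the 25th percentile and 3 at the 75th, and 6, 3 and 3 on designs A, B and C alone. The median rank in the paired pool was 23.8 on design B, 39.0 on design C and 39.1 with the highest-ranked probe set per gene, and in the unpaired pool 38.1 on design C and 37.5 with the highest-ranked probe set. For paralogues 1 to 4 the median of the mean rank was 25.1 on design A, 49.3 on design C and 39.4 with the highest-ranked probe set, for paralogues 5 to 8 it was 35.0, 15.3 and 53.2 in the same settings, and for paralogues 9 to 13 it was 22.4 on design B. These settings use fewer probe sets. A move was called where a rank changed by more than 5.28 points, the SD of the difference between the pools over the Hox probe sets, a log2 ratio by more than 0.19, or a count by more than 1.5 times. By these limits the other 79 of 98 comparisons of summary values with an alternative did not move. Nor did any of 63 comparisons of a single probe set of Hoxb5, Hoxb6, Hoxb2, Hoxb4, Hoxa4 or Hoxa6. Only a change of scaling can alter the ratio of these bright probe sets, so most of the 63 returned the same value by construction. The limit of 0.19 was also larger than the median Hox ratio of 0.09 and no smaller than the ratios of Hoxb2 and Hoxb4. The median log2 ratio of the kept Hox probe sets ran from 0.006 on design B to 0.25 on design A, and none of the Hox probe sets kept in a setting was 1.5-fold apart there. The floor was not taken away for dim probe sets, so those at it in both pools have no ratio in any setting. With no scaling, quantile or loess scaling 7 of 12 were higher in the paired pool, against 8 in the report. No paired analysis was possible because each group has 1 array per design and no replicate. The depth of these arrays is unknown, and how far the dim signals lie over background was not measured here.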

Other observations

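Transcripts from the Hox clusters other than the coding genes with a single symbol were also on the arrays. Hoxa11os, an antisense RNA of Hoxa11, had a probe set with the suffix r on design C at ranks of 98.8 in the paired and 98.7 in the unpaired pool, brighter than any Hox gene, while its probe sets on design A lay at 50.1 and 39.1 in the paired and 48.3 and 30.3 in the unpaired pool. The dimmer of these had a log2 ratio of 0.59, above 1.5-fold, from log2 signals of 4.14 in the paired and 3.56 in the unpaired pool, both under the median of the design. Hoxb5os, a noncoding RNA that overlaps Hoxb5 and Hoxb6, was read on design C by a probe set with the suffix i. It ranked at 68.0 in the paired and 70.1 in the unpaired pool, with a log2 ratio of -0.16. Hoxb5 itself had 0.44 on the arrays of design A. Hoxd3os1 was at the floor in both pools. Probe sets shared by Hoxd3 and Hoxd4 had ranks of 41.1 and 19.5 in the paired and 41.0 and 21.4 in the unpaired pool, and the one shared by Hoxb7 and Hoxb8 37.7 and 38.2. The probe set shared by Hoxa7 and Mira, on design B, had ranks of 36.9 in the paired and 43.6 in the unpaired pool and a log2 ratio of -0.31, lower than that of any Hox probe set with a single symbol.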
